A study of Homo sapiens with 8 samples.

Results

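The 4 HOX clusters were examined as 4 fixed windows of the genome build hg19, which hold the 38 HOX genes considered here. The windows were HOXA at chr7:27100000-27300000, HOXB at chr17:46580000-46830000, HOXC at chr12:54300000-54480000 and HOXD at chr2:176900000-177100000, each with 500 kb on either side as flanks. Every accessible peak that touched a window was a member. These were 503 of 411408 peaks, which merged into 146 of the 146099 regions of the series, with 34 regions in HOXA, 53 in HOXB, 44 in HOXC and 15 in HOXD. Peaks came from ATAC-seq, a method that marks open DNA by where a transposase can insert its adapters. The cells were G401, a human rhabdoid kidney tumour line, carrying a stable SMARCB1 construct that doxycycline switches on. SMARCB1, which the labels give as lost in the uninduced cells, belongs to the core of SWI/SNF, a complex that slides and evicts nucleosomes. Cells without induction were labelled day 0 and SMARCB1 -/-, and cells on 1 µg/ml doxycycline for 1, 3 or 7 days were labelled SMARCB1 +/+, with 2 replicates a day. All groups share the inducible construct, and doxycycline-treated cells without it were not analysed here. The sources used here do not say whether the line is 1 clone. The deposited values are 1 peak list a day, so differences between days carry neither a replicate error nor a p-value. Day 0 was assigned by elimination to the one list whose name matches no label, since the other 3 match the induced days. Peak lists carry no RNA, so the identity of the cells was not checked against marker genes.

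HOX genes encode homeodomain transcription factors that set position along the body axis, and within a cluster their order on the chromosome follows the order of the body segments in which they act. Clusters that are off are typically covered by Polycomb complexes, which compact chromatin, while active clusters form broad open domains. SWI/SNF is known to oppose Polycomb. In the RefSeq annotation of GRCh38.p14 the order from the low to the high end of each cluster was HOXA2, HOXA3, HOXA4, HOXA5, HOXA6, HOXA7, HOXA9, HOXA10, HOXA11 and HOXA13 on chromosome 7, and HOXB1 to HOXB9 followed by HOXB13 on chromosome 17. HOXC and HOXD run the other way, from HOXC13 to the genes HOXC4, HOXC5 and HOXC6 on chromosome 12 and from HOXD13 to HOXD1 on chromosome 2. Low-numbered genes such as HOXA2 and HOXB1 act in the hindbrain and its neural crest. HOXA9 and HOXB4 are known for roles in blood stem cells. HOXA11, HOXC11 and HOXD11 take part in the first steps of kidney formation. HOXA13 and HOXD13 act in the distal limb, and HOXB13 in the prostate. That annotation belongs to another build than the peaks, so no peak is assigned to a gene here.

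Promoters of 20 of the 38 genes were found in the RefSeq table of GRCh38.p14, as 27 start sites with 250 bases before and 50 after each. They were 9 genes of HOXA, 1 of HOXB, 2 of HOXC and 8 of HOXD. HOXA13 and HOXD13 are shown because they are the same paralogue group in the cluster with the highest and in the cluster with the lowest local read background, and the HOXA3 start is the one with the fewest CpG pairs. Capitals mark CpG pairs, the dinucleotide at which DNA methylation acts. They count 44 in HOXA13 (chr7:27200042-27200341, minus strand), 24 in HOXD13 (chr2:176092471-176092770, plus strand) and 0 in HOXA3 (chr7:27119546-27119845, minus strand), all in GRCh38.p14 and not comparable with the hg19 positions of the peaks.
HOXA13: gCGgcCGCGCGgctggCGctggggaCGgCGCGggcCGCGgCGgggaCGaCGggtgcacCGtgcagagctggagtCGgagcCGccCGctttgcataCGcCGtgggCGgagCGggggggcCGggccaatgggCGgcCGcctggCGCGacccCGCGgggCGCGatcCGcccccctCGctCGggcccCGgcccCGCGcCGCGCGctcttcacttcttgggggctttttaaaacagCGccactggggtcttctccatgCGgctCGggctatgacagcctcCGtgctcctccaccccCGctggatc
HOXD13: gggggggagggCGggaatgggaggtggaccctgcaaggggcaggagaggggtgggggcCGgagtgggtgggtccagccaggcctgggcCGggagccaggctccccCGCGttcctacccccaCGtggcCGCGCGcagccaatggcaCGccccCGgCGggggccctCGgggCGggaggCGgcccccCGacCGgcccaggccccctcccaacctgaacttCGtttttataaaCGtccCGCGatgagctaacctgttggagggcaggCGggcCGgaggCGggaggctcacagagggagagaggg
HOXA3: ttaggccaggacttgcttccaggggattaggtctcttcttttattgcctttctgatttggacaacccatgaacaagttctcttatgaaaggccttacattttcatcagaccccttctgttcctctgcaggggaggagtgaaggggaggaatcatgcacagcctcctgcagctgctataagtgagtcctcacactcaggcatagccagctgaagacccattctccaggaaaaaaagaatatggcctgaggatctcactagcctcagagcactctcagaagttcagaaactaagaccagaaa
The 27 starts had a median of 22 CpG pairs, with a range of 0 to 44, against a median of 14 over all 35116 promoters of the table. Their median GC content was 58.0%, against 58.7%. The 16 HOXA starts had a median of 21.5 pairs and the 8 HOXD starts 24.5. Searched on both strands, TGANTCA, the AP-1 element, occurred in 0 of the 27 starts and in 7.71% of all promoters. TGACGTCA, the cAMP response element, occurred in 0 and in 1.85%. TATAAA occurred in 18.5% of the 27 and in 11.5% of all. HOXA3 supplied 7 of the 27 starts and HOXC4 and HOXC5 share 1 window, so the starts are not independent, and a match or its absence describes only these letters in these windows.

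The clusters held nearly the same number of peaks before and after induction, while the whole lists grew. All 4 windows together had 120, 129, 129 and 125 peaks on days 0, 1, 3 and 7. The whole lists had 80744, 109876, 117606 and 103182. Peaks covered 9.15% of the windows on day 0 and 10.1%, 10.0% and 9.26% on days 1, 3 and 7. In the flanks the count was 245 on day 0 and 309, 328 and 283 on the induced days. The covered share there was 3.73% on day 0 and 4.72%, 4.88% and 4.42% later. The windows were thus more densely covered than their flanks in every list. HOXA had 28, 29, 28 and 33 peaks on days 0, 1, 3 and 7. HOXB had 42, 48, 51 and 43, and HOXC had 35, 39, 37 and 35. HOXD had the fewest, with 15, 13, 13 and 14. Per 100 kb, day 0 gave 14 peaks in HOXA, 16.8 in HOXB, 19.4 in HOXC and 7.5 in HOXD.

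**Figure D1:**
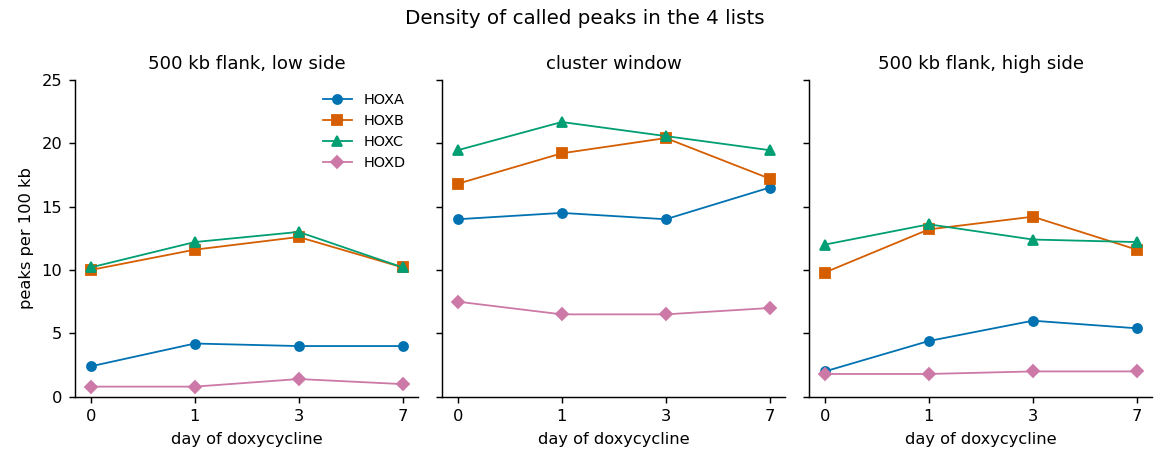
Peaks per 100 kb (vertical axis) in each of the 4 lists (horizontal axis, day of doxycycline) for the cluster windows and the 500 kb on either side; each point is 1 list, with no replicate error. HOXC and HOXB are the densest windows, HOXD is the sparsest at 6.5 to 7.5, and the high-side flank of HOXA goes from 2 on day 0 to 6 on day 3.

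Most cluster regions were open on every day. Of the 146 regions, 90 had a peak in all 4 lists, which is 61.6% against 41.6% of all regions of the series. Neighbouring regions of a window are not independent, so no interval is given for this share. Regions with a peak on all 3 induced days and none on day 0 numbered 12, or 8.22%, against 13.1% of all. Both shares mix regions of unlike local background and are split by it below. Regions with a peak on day 0 alone numbered 5, or 3.42%, against 4.26%. In all, 37 cluster regions (25.3%) had no day 0 peak, against 40.4% of the flank regions and 46.2% of all regions. Another 9 regions lost and regained a call over the course (6.16%, against 3.84% of all). The share without a day 0 peak was 26.5% in HOXA, 26.4% in HOXB, 27.3% in HOXC and 13.3% in HOXD. HOXD had 0 of 15 regions on all 3 induced days alone, and 12 of its 15 regions had a peak on every day. A missing peak means that the summit did not pass the caller's limit over the local background, not that reads were absent.

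That limit is high in HOXA, HOXB and HOXC, because their peaks stood on a raised local background of reads, called a raised floor here. The local background of a peak is the mean read depth around its summit, over 10000 bp where it exceeds the genome-wide background, as recovered from the authors' fold and p-value. It is given here relative to the genome-wide background of the same list, which was 6.34, 6.04, 6.73 and 6.10 reads on days 0, 1, 3 and 7. The 10000 bp take in reads of the peak itself and of its neighbours, and the value is known only at called peaks. Whether depth between peaks was raised was therefore not tested. At the regions open on every day, the median local background on day 0 was 8.97 times the genome-wide level in HOXA, 7.09 times in HOXB, 8.65 times in HOXC and 2.36 times in HOXD. All 60786 regions open on every day had a median of 2.25. A background of at least 5 times was found on day 0 at 62 of the 90 cluster regions (68.9%), against 18.7% of all regions open on every day. By cluster these were 18 of 20 in HOXA, 23 of 34 in HOXB, 21 of 24 in HOXC and 0 of 12 in HOXD. HOXD thus sat at the level of regions elsewhere, while the other 3 clusters lay well above it. A limit of 4 gave 67 regions and a limit of 7 gave 47 (74.4% and 52.2%, against 27.9% and 7.5% of all).

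The highest local background in HOXA on day 0 was 14.9 times the genome-wide level, and 0.0842% of the day 0 peaks had a higher value. The maximum was 10.5 times in HOXB, exceeded by 1.23% of day 0 peaks, and 11.7 times in HOXC, exceeded by 0.666%. In HOXD it was 3.86 times, exceeded by 26.1%. Runs of consecutive peaks at 5 times or more, called raised stretches, had edges inside the windows; those of 1 or 2 peaks are left out. In HOXA on day 0 one stretch ran from chr7:27134985 to 27155414 with 9 peaks and another from 27189955 to 27240582 with 14 peaks, and the latter held the maximum. In HOXC 1 stretch with 26 peaks ran for 105 kb, at chr12:54329230-54434270, and on day 7 a stretch with 26 peaks ran from 54329061 to 54434250. On day 3 it was split into stretches of 8 and 19 peaks. In HOXB the raised peaks fell into stretches at chr17:46618901-46633324, 46648606-46675765 and 46687546-46696319, and a further one at 46799921-46816589 lay beyond a gap without raised peaks. In both flanks of HOXA and both flanks of HOXD, 0 peaks reached 5 times in any list. The flanks of HOXB and HOXC held raised peaks in every list, from 9 to 27 a flank. Windows of neighbouring peaks overlap, so these values are not independent. At the peaks of the HOXA flanks the median local background on day 0 was 1.37 times the genome-wide level on the low side and 1.11 times on the high side.

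**Figure D2:**
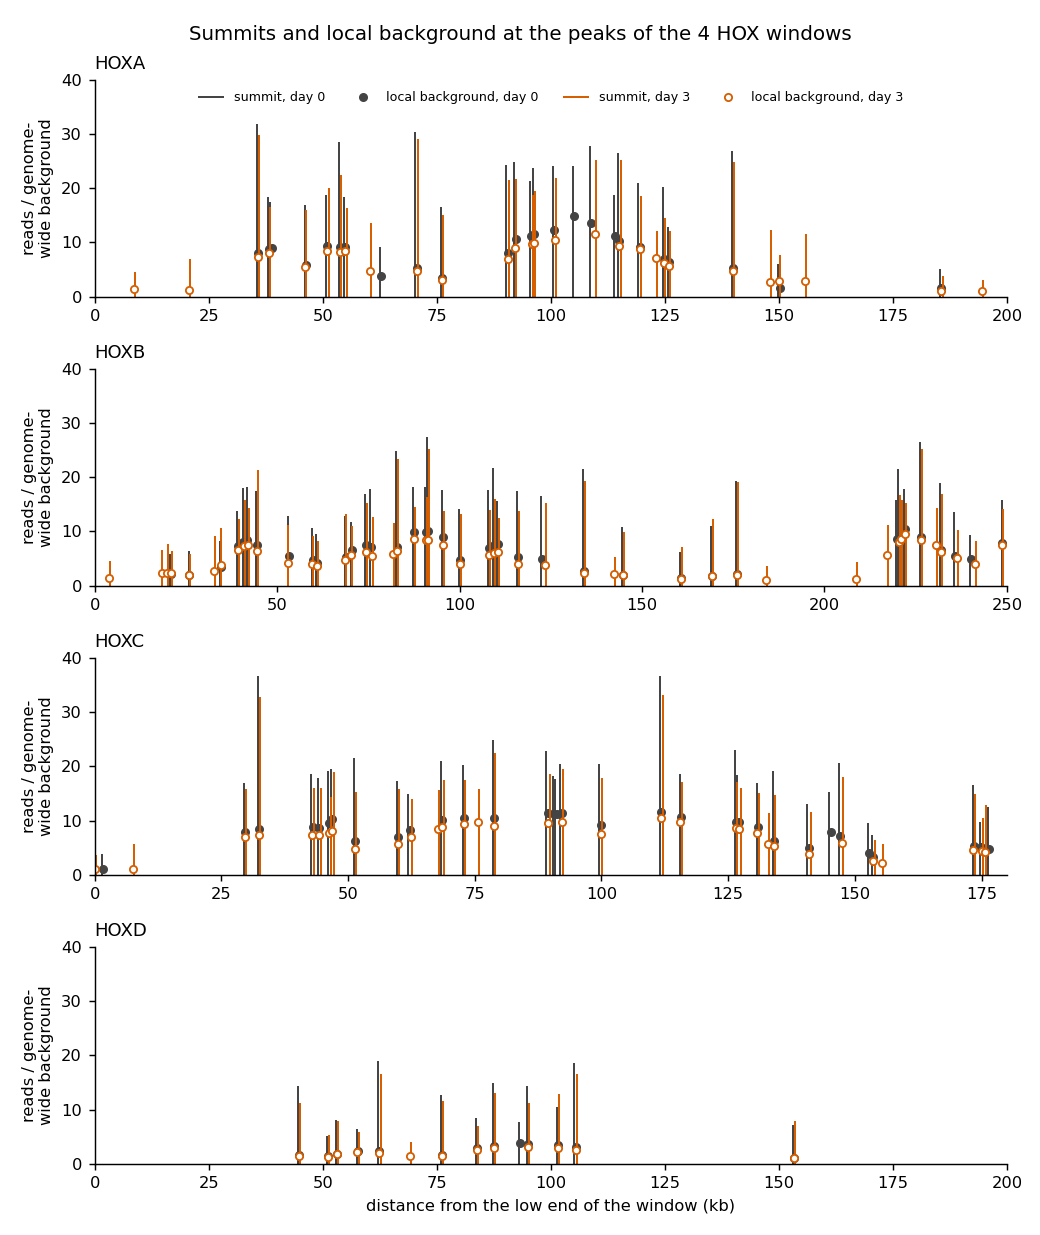
Each panel is 1 window, with the distance from its low end in kb on the horizontal axis; vertical lines are summit reads and circles the local background, both divided by the genome-wide background of the list, for day 0 (grey) and day 3 (orange). HOXA, HOXB and HOXC carry stretches where the circles lie above 5, while the HOXD circles stay at or below 3.86.

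**Figure D3:**
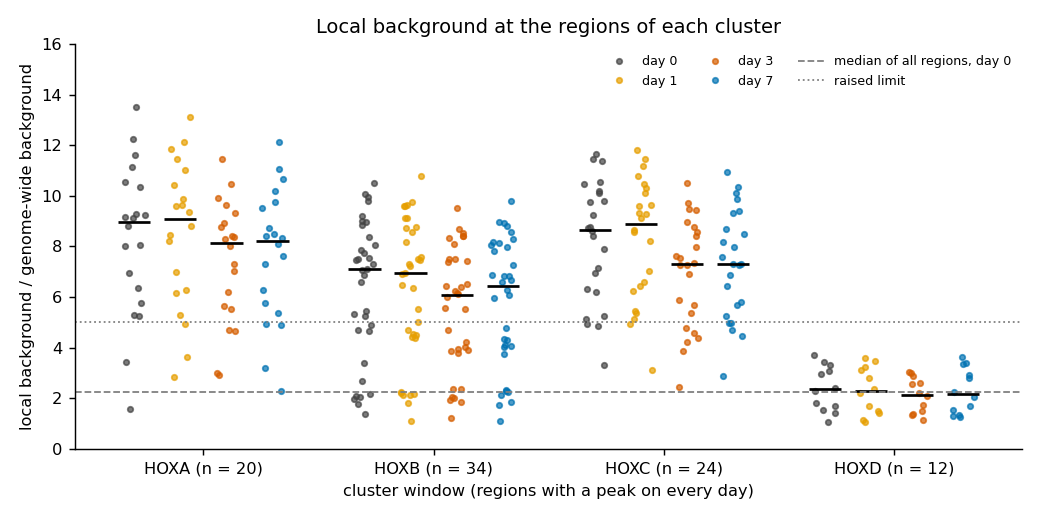
Local background divided by the genome-wide background (vertical axis) at the regions with a peak on every day, by cluster and day; points are regions, black lines medians, the dashed line the median of all such regions on day 0 (2.25) and the dotted line the limit of 5. HOXD medians lie between 2.13 and 2.36, and those of the other clusters between 6.07 and 9.08.

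Over a high floor more reads are needed for a call. On day 0 the weakest called summit held 18 reads where the local background equalled the genome-wide level. It held 57 reads where the background was 5 to 10 times higher, and 102 where it was at least 10 times higher. Presence and absence inside the raised stretches therefore refer to strong summits. An example, chosen after its values were seen, is chr7:27204812-27205232, the HOXA region with the highest background. Its summit held 153, 143 and 131 reads on days 0, 1 and 7. The folds over the local background were 1.61, 1.59 and 1.57, and the day 3 list had no peak there. Outside the raised stretches the same 3 windows also held weak calls, down to 20 reads in HOXA, 22 in HOXB and 21 in HOXC. Local background is known only on days with a peak, so regions called on more days had more chances to count as raised. Across the whole series, 76.7% of regions with a raised background on some day had a peak on every day, against 37.1% of the others. In the clusters these shares were 68.5% of 92 and 50% of 54. Regions with a peak on all 3 induced days alone made up 4.16% of the raised and 14.2% of the other regions of the series. In the clusters they made up 5.43% and 13%, so at like background the clusters were near the series.

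At the regions open on every day the summits stayed close to their day 0 height. Summit reads were divided by the genome-wide background of their list, and this value is called the scaled summit. The median log2 change from day 0 over the 90 cluster regions was 0.04, -0.16 and -0.07 on days 1, 3 and 7. The SDs over regions were 0.17, 0.17 and 0.19. Over all 60786 regions it was 0.08, -0.08 and -0.04, with SDs of 0.37, 0.43 and 0.34. A scaled summit at least 2-fold higher than on day 0 was found at 0 of the 90 cluster regions on every later day. Over all regions the shares were 3.89% on day 1, 4.02% on day 3 and 2.22% on day 7, and 4.70% on any later day. Summits at least 2-fold lower were also 0 of 90 on each day, where all regions gave 0.00987%, 0.0707% and 0.0625%. The extremes in the clusters were a log2 change of 0.65 and of -0.56.

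The summits of cluster regions with a raised floor had median changes close to those of regions with a raised floor elsewhere. The 62 raised cluster regions had median log2 summit changes of 0.00, -0.16 and -0.11 on days 1, 3 and 7. The 11310 raised regions outside the clusters had 0.04, -0.14 and -0.08, and 0.0973% of them were at least 2-fold higher on any later day. Among the 49386 regions outside the clusters without a raised floor that share was 5.76%, and in the clusters it was 0 of 28. The local background itself had median log2 changes of 0.00, -0.19 and -0.14 over the 90 cluster regions. Over the 62 raised ones they were 0.01, -0.20 and -0.14, and over the raised regions elsewhere -0.01, -0.18 and -0.14. The local background was lower than on day 0 at 84 of 90 regions (93.3%) on day 3 and at 82 of 90 (91.1%) on day 7. Among the 62 raised cluster regions it was lower at 62 (100%) on day 3 and at 61 (98.4%) on day 7. The shares were 62.7% and 63.1% over all regions, and 91.1% and 91.7% over the raised regions elsewhere. The scaling decides the sign of such small medians. The authors' fold, set against the local background, gave 0.04 on each of days 1, 3 and 7 in the clusters, against 0.07, 0.02 and 0.03 over all regions. Scaling by the median summit of all regions gave -0.17, -0.23 and -0.11, and moved the median of all regions on day 1 by -0.21, while the fold moved it on day 3 by 0.10. Under each of the 3 scalings 0 of 90 regions changed 2-fold in either direction. By fold, 2-fold increases made up 1.01%, 1.06% and 0.454% of all regions on days 1, 3 and 7 and decreases 0.0165%, 0.0888% and 0.0345%. With summits scaled by the median of all regions, increases made up 2.71%, 3.59% and 2.07% and decreases 0.0625%, 0.132% and 0.0872%.

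**Figure D4:**
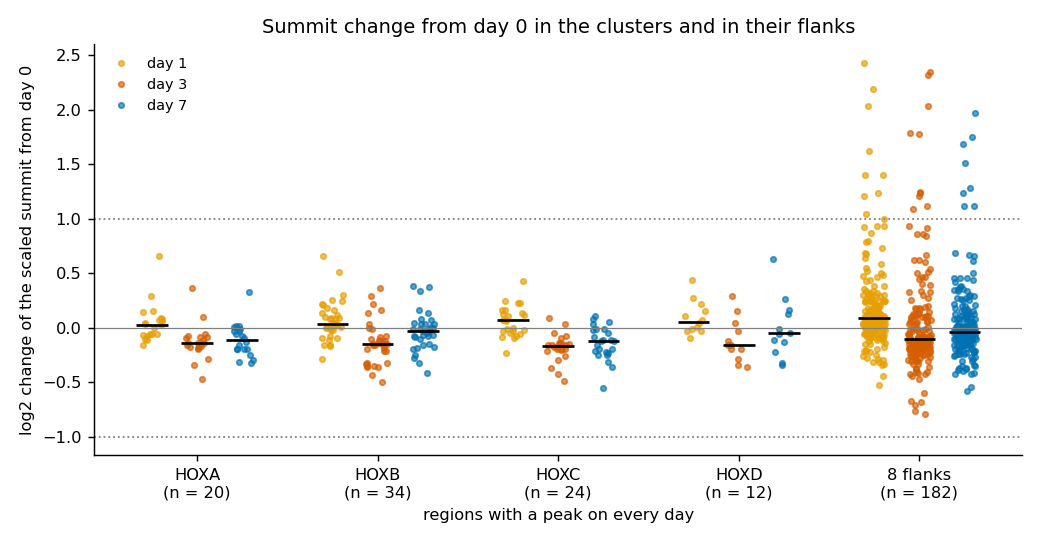
Log2 change of the scaled summit from day 0 (vertical axis) at regions with a peak on every day, by cluster and for the 8 flanks together; points are regions, black lines medians and dotted lines a 2-fold change. All cluster points lie between -0.56 and 0.65, while 12 of 182 flank regions pass the upper dotted line on some day.

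Counting intervals were computed for each of the 90 regions against day 0. The interval of the summit ratio lay above 1 at 3 regions on day 1, 0 on day 3 and 1 on day 7, where all regions gave 10%, 8.71% and 5.36%. It lay below 1 at 0, 6 and 1 regions, where all regions gave 0.434%, 3.02% and 1.74%. All 7 of the latter were among the 62 regions with a raised floor, and the raised regions elsewhere gave 0.778%, 6% and 2.26%. For the local background the interval lay below 1 at 9, 74 and 62 of the 90 regions and above 1 at 8, 3 and 4. No share over all regions is given for this interval, so these counts are not read as a trait of the clusters. At the 62 raised cluster regions it lay below 1 at 6.45%, 96.8% and 85.5%. The raised regions elsewhere gave 18.5%, 79% and 70.5%. Their median local background on day 0 was 6.53 times the genome-wide level, against 8.65 times at the raised cluster regions. More reads give narrower intervals, so a fall of the same size is called more often in the clusters. The intervals are exact 95% intervals of counting error, contain no replicate error and were not adjusted for the number of regions. Summit positions of the 4 lists spanned a median of 83 bp in the clusters, against 93 bp over all regions open on every day and 74 bp over the raised regions elsewhere. The span was at most 100 bp at 55 of the 90 cluster regions (61.1%), against 55% of all regions and 62.3% of the raised regions elsewhere. It was over 500 bp at 6 of the 90, against 1757 of all 60786 and 542 of the 11310 raised regions elsewhere. In the accounts of single clusters, the regions of largest increase and decrease were picked for that difference, so their intervals describe counting error and do not show that a day differs.

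In HOXA, the highest summit was at chr7:27134985-27137038, with 202, 201, 200 and 196 reads on days 0, 1, 3 and 7. Its scaled summit was 31.8, 33.3, 29.7 and 32.1, so the 4 lists hardly differ there. The largest decrease from day 0 was at chr7:27224195-27225475, where reads were 128, 113, 98 and 99. The day 3 ratio there was 0.722 (0.549 to 0.947) and that of day 7 was 0.804 (0.612 to 1.05). The largest increase was at chr7:27249908-27250787, where reads were 38, 57, 52 and 46. Its ratio to day 0 was 1.57 (1.03 to 2.44) on day 1, and later 1.29 (0.833 to 2.02) and 1.26 (0.801 to 1.99). Its local background was 1.56 times the genome-wide level on day 0 and 2.82, 2.93 and 2.28 times later, so the fold did not increase, at 3.58 on day 0 and 3.21, 2.56 and 3.15 later.

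The region of largest increase lay between a pair of HOXA regions without a day 0 peak, on the high side of the raised stretch. At chr7:27247538-27248475 the summit held 71 reads on day 1, 82 on day 3 and 42 on day 7. At chr7:27255148-27256397, named after its values were seen, it held 68, 78 and 39. Both were lowest on day 7. The other HOXA regions of all 3 induced days were chr7:27159881-27160716, with 90, 91 and 60 reads, and chr7:27120386-27120911, with 42, 47 and 45. The last had the highest folds of the 4 on days 1, 3 and 7, at 5.21, 4.92 and 5.34, on a local background of 1.2 to 1.3 times the genome-wide level. HOXA had 1 region on day 0 alone, at chr7:27138697-27138939, with 111 reads and a fold of 1.94 over a background of 8.94 times the genome-wide level.

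In HOXB, the highest scaled summit on any day was the day 1 summit at chr17:46805801-46806759, in the stretch beyond the gap, with 168, 170, 169 and 170 reads on days 0, 1, 3 and 7. On days 0 and 7 chr17:46671159-46671974, added after its values were seen, was higher, with 174, 163, 169 and 171 reads over the 4 days, and on day 3 the pair was level. The largest increase was at chr17:46614337-46614703, where reads were 52, 78, 71 and 63. Its ratio to day 0 was 1.57 (1.09 to 2.28) on day 1, and later 1.29 (0.888 to 1.88) and 1.26 (0.859 to 1.85). The largest decrease was at chr17:46654696-46656441, with 113, 101, 85 and 98 reads and a day 3 ratio of 0.709 (0.529 to 0.948). The ratio was 0.938 (0.710 to 1.24) on day 1 and 0.902 (0.681 to 1.19) on day 7.

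Of the 6 HOXB regions of all 3 induced days, chr17:46810375-46810778 held 89, 96 and 76 reads and chr17:46661645-46662000 held 92, 78 and 81. Both stood on a raised floor, with folds between 1.66 and 2.28. The others had local backgrounds of 1.17 to 3.19 times the genome-wide level and lay near the low end of the window or in the gap before the last stretch. Among them, chr17:46599485-46600047 held 46, 52 and 43 reads with folds of 3.32, 3.30 and 2.99. The day 0 region without a later peak, chr17:46819985-46820237, held 59 reads with a fold of 1.88.

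In HOXC, a pair of regions shared the highest day 0 summit. Reads at chr12:54331963-54333199 were 232, 231, 221 and 206 on days 0, 1, 3 and 7. At chr12:54410429-54412685, outside the naming rule and added after its values were seen, they were 232, 221, 223 and 222. The former had a day 0 fold of 4.29 and the latter, over a background of 11.7 times the genome-wide level, 3.11. The largest decrease was at chr12:54359579-54360169, where reads were 110, 89, 106 and 72 and the day 7 ratio was 0.681 (0.498 to 0.924). The largest increase was at chr12:54453334-54453786, with 46, 59, 43 and 44 reads and a day 1 ratio of 1.35 (0.900 to 2.02), which includes 1.

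HOXC had 2 regions of all 3 induced days. At chr12:54375503-54375748 the summit held 120, 106 and 118 reads, with folds of 1.72, 1.6 and 1.87 over the raised floor. At chr12:54432410-54433065 it held 73, 76 and 66, with folds of 1.88, 1.98 and 1.79. The lowest fold called anywhere on day 0 was 1.54 at a background of 5 to 10 times the genome-wide level and 1.47 at 10 times or more. The 2 regions of day 0 alone were of the same kind. The one with the higher fold, chr12:54390645-54390845, held 116 reads with a fold of 1.62.

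HOXD, the cluster without a raised floor, had lower summits and higher folds. The median day 0 summit of its 12 regions open on every day held 73.5 reads, against 143 in HOXA, 111 in HOXB and 122.5 in HOXC. The median day 0 fold was 4.24, against 2.44, 2.45 and 2.17. The highest scaled summit on any day was at chr2:177005038-177005951, with 118, 118, 112 and 110 reads, the highest on days 1 and 3. On days 0 and 7 chr2:176961951-176962815, likewise added, was higher, with 120, 112, 111 and 111 reads over the 4 days. The largest decrease was at chr2:176944461-176945416, with 91, 81, 75 and 70 reads and a day 3 ratio of 0.777 (0.565 to 1.07), which includes 1. The largest increase was at chr2:177052834-177053677, where reads were 45, 50, 53 and 67. Its day 7 ratio was 1.55 (1.05 to 2.31) and its earlier ratios were 1.17 (0.764 to 1.79) and 1.11 (0.732 to 1.69). It lay apart from the other HOXD regions, at the high side of the window, on a local background of 1.05 to 1.29 times the genome-wide level. The day 0 region without a later peak, chr2:176993166-176993474, held 49 reads with a fold of 1.96.

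The flanks, where long-range enhancers of HOX genes are known to lie, held some regions that differed more from day 0. Of their 182 regions open on every day, 12 (6.59%) reached 2-fold or more of day 0 on at least 1 induced day, against 4.70% of all regions and 0 of 90 in the clusters, and 0 were 2-fold lower. These 12 were 1 of 8 in each flank of HOXA, 3 of 37 on the low side and 3 of 39 on the high side of HOXB, and 4 of 36 on the low side of HOXC. The high side of HOXC had 0 of 43, and the flanks of HOXD 0 of 3 and 0 of 8. Regions on all 3 induced days without a day 0 peak made up 11.5% of the flank regions, below the 13.1% of all regions.

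The high-side flank of HOXA had the highest share of such regions among the 8 flanks. In the GRCh38 order the coding genes that follow HOXA13 are EVX1, a homeobox gene, and then HIBADH, TAX1BP1 and JAZF1. That order holds no distances and is of another build, so which of them lie in this flank was not checked. The flank had 10 peaks on day 0 and 22, 30 and 27 on days 1, 3 and 7. Of its 37 regions, 12 (32.4%, against 13.1% of all regions) were called on each induced day but not on day 0, and 27 (73.0%, against 46.2%) had no day 0 peak. In the 300 kb next to the cluster, a distance chosen after the data were seen, the lists had 1, 6, 12 and 10 peaks on days 0, 1, 3 and 7. The highest region without a day 0 peak was chr7:27386395-27387251, with 92, 129 and 97 reads on days 1, 3 and 7 and folds of 9.47, 8.82 and 8.09. Among regions open on every day, chr7:27645466-27646636, named after its values were seen, held 27 reads on day 0 and 139, 143 and 102 later. Its ratio to day 0 was 5.40 (3.56 to 8.49), 5.0 (3.29 to 7.84) and 3.93 (2.55 to 6.25). Its local background was also 2.71, 2.83 and 2.68 times that of day 0. The highest summit of this flank, chr7:27701712-27703013, held 222, 216, 211 and 213 reads. Both regions were picked, the former after its values were seen and the latter for its height. They show no relation between height and change in this flank.

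**Figure D5:**
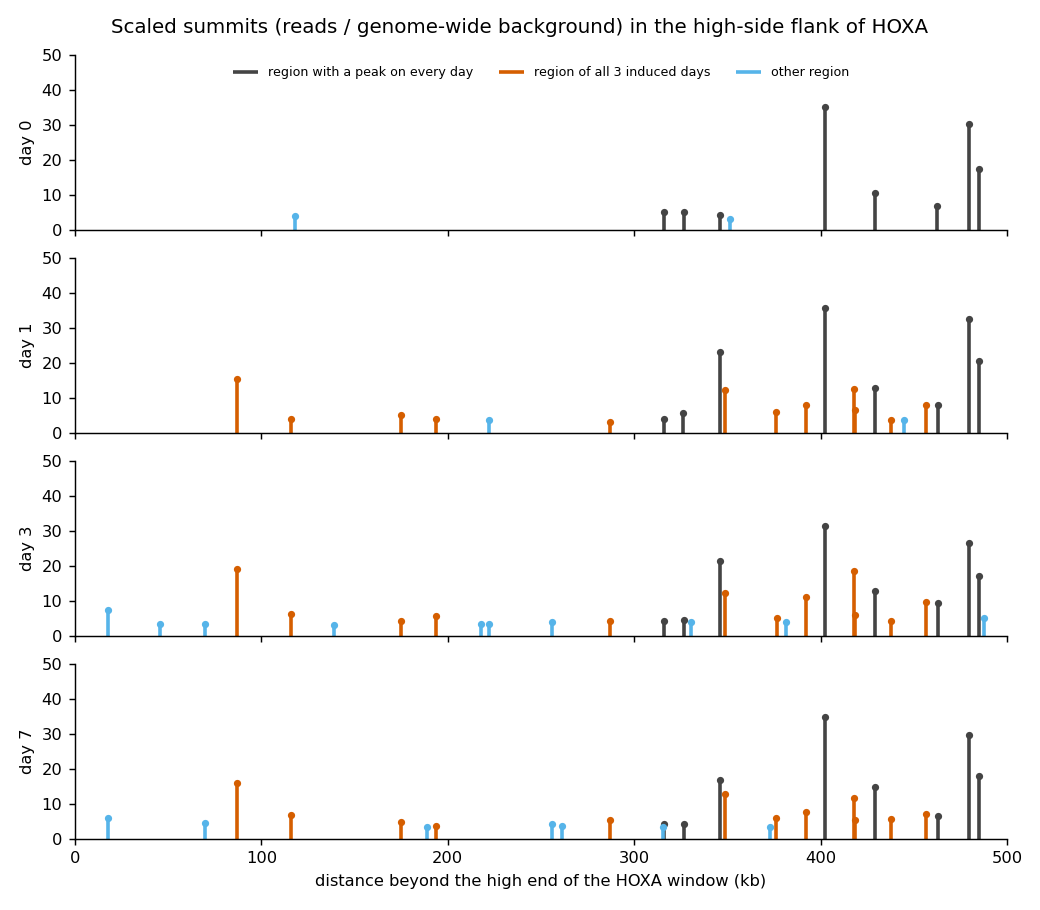
Scaled summits (vertical axis, reads divided by the genome-wide background) of the peaks in the 500 kb beyond the high end of the HOXA window, 1 panel per list, with the distance from the window in kb on the horizontal axis; colours give the days on which a region had a peak. The day 0 list has 10 peaks and the day 3 list 30, and the 12 orange regions have peaks on days 1, 3 and 7 alone.

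In the low-side flank of HOXA, chr7:26949735-26950376 had no day 0 peak and held 86, 102 and 64 reads later, with folds of 6.94, 7.21 and 5.65. On the low side of HOXD, chr2:176464700-176465733 had no day 0 peak and held 74, 118 and 97 reads, with folds of 10.4, 8.91 and 8.21. It was the 1 region of all 3 induced days among the 8 regions of that flank. On the high side of HOXD 0 of 12 regions were of that kind, and the highest region without a day 0 peak there, chr2:177156520-177156823, was called on day 7 alone with 25 reads.

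Near HOXB, chr17:46093443-46093928 on the low side had no day 0 peak and held 140, 146 and 93 reads. On the high side chr17:47183814-47184407 held 66, 99 and 70. Next to it, chr17:47187397-47188434, named after its values were seen, held 30 reads on day 0 and 131, 162 and 93 later, a ratio of 4.58 (3.06 to 7.06), 5.09 (3.43 to 7.79) and 3.22 (2.12 to 5.04). Near HOXC, chr12:54238433-54239794 on the low side, named in the same way, held 29, 113, 126 and 94 reads. Its ratios were 4.09 (2.70 to 6.38), 4.10 (2.72 to 6.37) and 3.37 (2.20 to 5.30). The highest regions without a day 0 peak in the flanks of HOXC were chr12:53890134-53890333, called on day 3 alone with 121 reads and a fold of 1.70, and chr12:54782063-54782536, with 126 and 108 reads on days 1 and 3 and no peak on day 7.

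In all 8 flanks the highest region open on every day stayed near its day 0 height, with log2 changes from -0.18 to 0.18. At the highest of them, chr17:46125049-46126538 on the low side of HOXB, reads were 254, 237, 244 and 235. On the low side of HOXD, chr2:176866031-176867545 held 179, 182, 171 and 174. These regions were picked for their height, and the 12 that moved 2-fold started between 22 and 99 reads. The highest summits of the whole lists held 283, 287, 282 and 264 reads on days 0, 1, 3 and 7. A 2-fold rise of the regions picked for height would have passed every listed summit.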

How the data were processed

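ATAC-seq of 8 samples (days 0, 1, 3 and 7, with 2 replicates each) was deposited as 4 peak lists in 1 file. The submitters' processing notes name Bowtie2, deepTools, MACS2 version 2.1.1.20160309 and hg19. The sources used here do not state the filters, any transposase offset or whether replicates were pooled. Nothing in the labels says whether replicates were separate cultures. Per peak, the authors deposited a score (in 99.96% of peaks the whole part of 10 times the -log10 q), a fold (the ratio of summit to local background), the -log10 of the p-value and q-value, and the summit position.

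Summit reads and local background were recovered from fold, taken as (reads + 1) / (background + 1), and the Poisson p-value. The best whole number was off by at most 0.000863 in -log10 p, and the next by at least 0.0272. Raised backgrounds were whole reads in 10000 bp, within 0.1, in 100% of 314336 peaks, with reads extended to 200 bp. The most common background of a list was its genome-wide background and its measure of depth. Smallest and median summits held 16 to 18 and 48 to 57 reads, so weak peaks carry wide counting error. Overlapping peaks of the 4 lists (at least 1 bp) were merged, and each day took its highest summit. Ratios have exact conditional binomial 95% intervals, which cover counting error only and would be too narrow with PCR copies. The recovery returned the reads of 100% of 16263 simulated peaks, and merging returned the days of 100% of 3000 simulated regions. The simulated peaks used the formula that the recovery inverts, and the simulated regions lay far apart. Both therefore check the code alone and not its use in crowded windows. Coordinates are 1-based.

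Members, windows and lists were chosen with earlier results of these data known, and the local background, its limit of 5, and the regions named after their values were chosen after seeing the data. In each cluster the text names the highest scaled summit, up to 3 regions of all 3 induced days with the highest low point, the day 0 region with the highest fold, and the largest increase and decrease. In each flank it names the highest region without a day 0 peak and the highest open on every day. Alternatives were a -log10 q of at least 5, summits inside the window, joining within 100 bp, reciprocal overlap of at least 50%, other scalings and flanks of 100 and 250 kb. Tests over the 8 samples could not be made. Python 3.11.15, NumPy 2.4.6, pandas 2.3.3, SciPy 1.17.1 and matplotlib 3.10.9 were used.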

Additional observations from a re-analysis of the deposited data

How the results depend on the processing

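Of 43 alternatives tried on 19 results, 39 were rated the same. For a count this meant within 1.5 times the main count of that result. For a median summit change it meant the same sign and within 1 SD over regions. Differences between days were not rated. With a -log10 q of at least 5 the clusters had 109 peaks on day 0 and 108 on day 7, in place of 120 and 125. The covered length was then 73148 bp on day 0 and 72280 bp on day 7, in place of 75915 and 76823 bp. The number of cluster regions with a peak on day 0 alone was 5, and 14 when peaks had to overlap reciprocally by at least 50% to count as 1 region, which splits wide regions into more pieces (179 in place of 146). The median log2 summit change of the clusters on day 1 was 0.04, and -0.17 when summits were scaled by the median summit of all regions open on every day. On day 3 it was -0.16, and 0.041 by the fold of the authors, whose base is the local background. On day 7 it was -0.07, and 0.038 by that fold. Regions with a raised local background numbered 62, and 67 and 47 with limits of 4 and 7, chosen after seeing the data. No paired analysis was possible because each day has 1 list and no value per sample, and leaving out a replicate could not be run for the same reason. No difference between days can be set against the spread between replicates. Inside the raised stretches of HOXA, HOXB and HOXC weak sites would not be listed. The build of the gene annotation differs from that of the peaks.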
